A study of Homo sapiens with 6 samples.

Results

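The mRNAs of 10 selenoproteins that are neither glutathione peroxidases nor thioredoxin reductases were followed in U87MG cells given RSL3. They are SELENOF, SELENOH, SELENOI, SELENOK, SELENOM, SELENON, SELENOS, SELENOT, SELENOW and MSRB1, and they were identified by gene name, older names included. Each name matched 1 Ensembl identifier among the 65988 in the count files, and all 10 were among the 16105 genes with enough reads to test. The U87MG line, established from a human glioblastoma, was labelled WT in every sample. Cells received either vehicle (control, 3 libraries) or 2 µM RSL3 (3 libraries), and poly(A) RNA was sequenced. RSL3 is a small molecule that inactivates the selenoenzyme GPX4, which detoxifies lipid hydroperoxides, and so starts ferroptosis, an iron-dependent cell death. The labels give no treatment time, and the study's text gives 24 h. The study's statistics text speaks in general of biologically independent experiments or samples, but the labels do not tie the 3 libraries of a group to separate cultures. The p-values measure the spread between these libraries. In bulk RNA, fewer cells of a kind and less RNA per cell cannot be told apart.

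Selenoproteins carry selenocysteine, the selenium analogue of cysteine. It is inserted at a UGA codon, which is otherwise a stop signal, when an RNA hairpin in the 3′ untranslated region (the SECIS element) recruits SECISBP2 and the elongation factor EEFSEC. A UGA read as a stop more than about 50 bases before the last exon junction is the arrangement that nonsense-mediated decay recognizes, and several selenoprotein mRNAs are known to fall through this route when selenium is scarce. Most of the 10 proteins reside in the endoplasmic reticulum (ER). SELENOF, SELENOM, SELENOT, SELENOH and SELENOW have a thioredoxin-like fold, whereas SELENOK and SELENOS are single-span ER membrane proteins with selenocysteine at their very end.

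The codon that makes these genes a family is shown for each, because its place in the mRNA differs between members and was later set beside the change with RSL3. Each line holds 27 bases of the spliced transcript, sense strand, in GRCh38 sequence, 12 on either side of the UGA, written as TGA in capitals. Any cysteine codon (TGT or TGC) within the 4 codons before the UGA is also in capitals. In SELENOH, SELENOT, SELENOW, SELENON and SELENOK the 27 bases cross an exon junction, so they are not contiguous in the genome.
SELENOF: gaagttTGTggaTGAaaattgggaagg
SELENOH: catTGCactagcTGAcgcgtctatggg
SELENOM: accTGCgggggaTGAcagctgaaccgc
SELENOT: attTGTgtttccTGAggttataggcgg
SELENOW: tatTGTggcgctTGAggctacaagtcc
SELENON: gaccagtccTGCTGAggttcagggcgg
SELENOI: ccaaactcagatTGActaggaatggaa
SELENOK: atggctggtggaTGAggaaggtaaatg
SELENOS: tcatctggcggaTGAggctaagaatct
MSRB1: cagtcccgattcTGAatattcagcagc
SELENOH, SELENOM, SELENOT and SELENOW share a cysteine codon 9 bases before the UGA, the Cys-X-X-Sec arrangement of a thioredoxin-like active site. In SELENOF 1 codon lies between the cysteine and the UGA, and in SELENON the codons are adjacent. The remaining 4 members have no cysteine codon in that stretch. The annotated SELENON transcript has a further UGA in its exon 3, at residue 127 of 590.

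Among the 10 mRNAs, SELENOH, SELENON and SELENOT fell with RSL3 and SELENOI rose, while the other 6 did not pass the test. Thus 4 of 10 were called at an adjusted p under 0.05 by edgeR's quasi-likelihood test, where 25.6% of all genes tested were. By direction, 3 of 10 were called lower, against 12.7% of all genes, and 1 of 10 was called higher, against 12.9%. The median log2 fold change over the 10 was -0.09, and over all genes it was -0.0044. The lowest fold change was that of SELENOH at -0.72 on the log2 scale and the highest was that of SELENOI at 0.34. The groups did not overlap in 6 members, against 38.6% of all genes tested, with 4 lower and 2 higher in every RSL3 library. Summed, the 10 mRNAs came to 769, 758 and 757 CPM (TMM-normalized counts scaled to the same library total) in the control libraries and 686, 695 and 702 in the RSL3 libraries. The sum was therefore lower in every RSL3 library than in any control library. SELENON had the most counts of the 10 and weighs most in this sum, its mean going from 6010 to 4023 normalized counts. In those units the sum ran from 25824 to 26232 in control and from 23430 to 23968 in RSL3 libraries. The lower sum does not show a fall of all members, and 3 of them had a log2 fold change above 0. Raw counts of a single member in a library ran from 258 to 7503, and SELENOW and MSRB1 had the fewest.

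**Figure D1:**
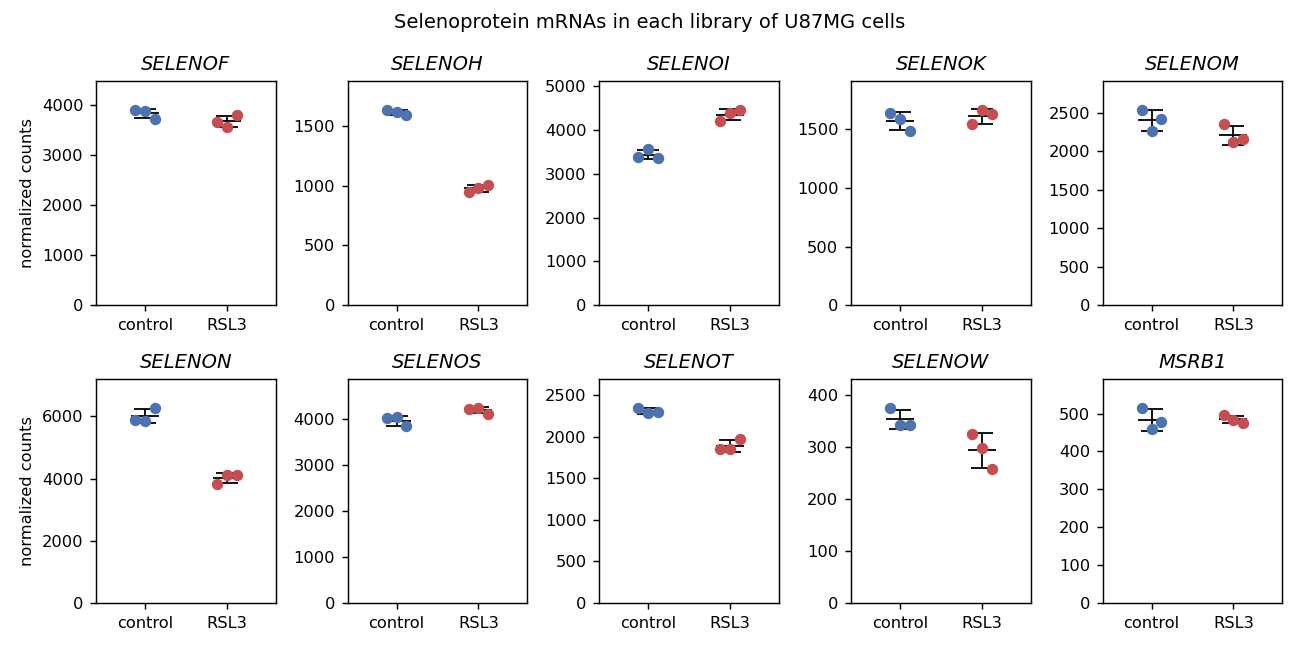
Normalized counts (vertical axis, from 0) of each of the 10 mRNAs in the 3 control (blue) and 3 RSL3 (red) libraries, with the mean and SD in black. SELENOH, SELENON and SELENOT sit lower and SELENOI higher in every RSL3 library, while SELENOF, SELENOK, SELENOM and MSRB1 overlap between the groups.

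The libraries held 27813462 to 43306335 counts each. Markers of astroglia and glioblastoma were checked against the labelled cell type. The marker counts are not corrected for gene length. VIM, TNC, CD44 and EGFR were abundant, with control means of 68318, 40751, 24702 and 5945 normalized counts, whereas GFAP (104) and NES (153) were low, S100B and SOX2 had 2 and 4 raw counts in all, and AQP4 had 0. The summed level of these 10 markers was 139323 to 140940 in control and 126390 to 131155 in RSL3 libraries, as VIM and CD44 fell and TNC rose. The 10 markers of immune, endothelial, epithelial, neuronal and oligodendrocyte cells summed to 1087 to 1121 in control and 1255 to 1276 in RSL3 libraries, most of it SYT1, and MOG had 0 counts. Of these, SYT1 and MBP rose and VWF fell. The part of these shifts in the selenoprotein results was not tested.

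SELENOH, a small nucleolar protein with a thioredoxin-like fold, showed the largest change of the 10. It had 1630, 1614 and 1589 normalized counts in the control libraries and 943, 979 and 1008 in the RSL3 libraries. The 2 groups lay far apart next to their spread, with means of 1611 ± 20.6 and 976 ± 32.4 (SD, n = 3 each). SELENOH thus fell by 39.4%, a log2 fold change of -0.72 (SE 0.0482, 95% interval -0.82 to -0.62, edgeR adjusted p = 6.06e-10). By size of change it ranked 224 of the 2041 genes called lower. The gene (ENSG00000211450) lies at chr11:57741491-57743554 on the plus strand, and its UGA is codon 44 of 122, in exon 2 of 4 at chr11:57741816-57741818. Other genes share 22.8% of its exon bases. ENSG00000254732, which shares most of these, had 1 read over all 6 libraries and BTBD18 had 8. Here and for the members below, the counts of an overlapping gene do not show how many reads fell on the shared bases.

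SELENON, an ER membrane glycoprotein linked to calcium handling and mutated in congenital muscle disease, fell by 33.1%. Its control libraries had 5898, 5859 and 6274 normalized counts, and its RSL3 libraries had 3828, 4132 and 4110. Every RSL3 library was below every control library, at a mean of 4023 ± 169 against 6010 ± 229 (SD, n = 3 each). The log2 fold change was -0.58 (SE 0.0374, 95% interval -0.66 to -0.50, edgeR adjusted p = 3.55e-10), rank 315 of the 2041 genes called lower. SELENON (ENSG00000162430) lies at chr1:25800193-25818221 on the plus strand. The UGA printed above is codon 462 of 590, in exon 10 of 13 at chr1:25812789-25812791, and the exon 3 UGA is at chr1:25802093-25802095. Whether exon 3 was in the sequenced transcripts cannot be read from counts per gene. Genes that share 15% of its exon bases, ENSG00000255054 and ENSG00000228172, had 0 reads and 8 to 21 reads per library.

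SELENOT, a thioredoxin-like protein of the ER membrane, fell by 18.2%. The control libraries gave 2349, 2284 and 2303 normalized counts and the RSL3 libraries gave 1856, 1849 and 1971. No RSL3 library reached the lowest control library, and the means were 1892 ± 68.2 and 2312 ± 33.8 (SD, n = 3 each). The log2 fold change was -0.29 (SE 0.0405, 95% interval -0.37 to -0.21, edgeR adjusted p = 1.42e-05), rank 872 of the 2041. SELENOT (ENSG00000198843) is at chr3:150602875-150630436 on the plus strand, with the UGA at codon 49 of 195 in exon 2 of 6 (chr3:150622392-150622394). It shares 61 exon bases, 1.49% of its total, with SERP1 on the opposite strand, an abundant ER stress gene with 9971 to 15366 reads per library. Reads were counted without strand, so those bases cannot be assigned to either gene. SERP1 itself rose, with a log2 fold change of 0.13 (edgeR adjusted p = 0.00200).

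SELENOI was the member that rose. It encodes the ethanolamine phosphotransferase of the final step of the CDP-ethanolamine route to phosphatidylethanolamine, a major membrane phospholipid whose polyunsaturated forms are substrates of ferroptotic peroxidation. Control libraries had 3385, 3561 and 3371 normalized counts, and RSL3 libraries had 4215, 4389 and 4450. The lowest RSL3 library exceeded the highest control library, and the means were 4351 ± 122 and 3439 ± 106 (SD, n = 3 each). The increase was 26.7%, a log2 fold change of 0.34 (SE 0.0356, 95% interval 0.27 to 0.42, edgeR adjusted p = 2.91e-07), rank 613 of the 2082 genes called higher. SELENOI (ENSG00000138018) is at chr2:26308547-26395885 on the plus strand, and its UGA is codon 387 of 397, in the last of 10 exons (chr2:26389068-26389070). ADGRF3, on the opposite strand, shares 5.74% of its exon bases and had 9 to 38 reads per library, with a log2 fold change of 1.48 (edgeR adjusted p = 0.00240).

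**Figure D2:**
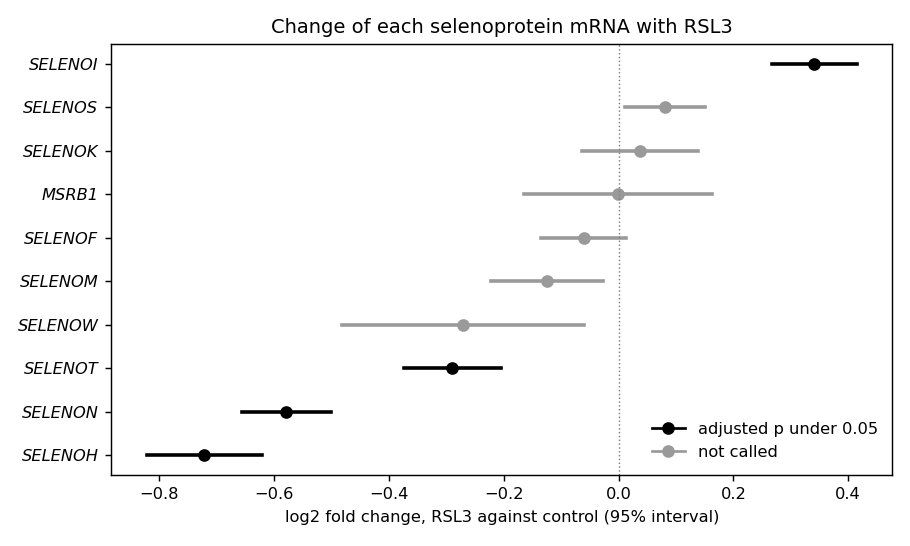
Log2 fold change of each mRNA, RSL3 against control (horizontal axis), with its 95% interval from the edgeR fit, for 3 libraries per group. Black members passed an adjusted p of 0.05, namely SELENOH, SELENON and SELENOT to the left of 0 and SELENOI to the right, and the intervals of SELENOM, SELENOW and SELENOS also leave out 0 before adjustment.

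SELENOW, SELENOM and SELENOS lay near the threshold. SELENOW, a small cytosolic thioredoxin-like protein, had 374, 341 and 341 normalized counts in control and 324, 297 and 258 in RSL3 libraries. Each RSL3 library was below each control library, but the spread was wide, with means of 293 ± 33.5 and 352 ± 19.1 (SD, n = 3 each). The log2 fold change was -0.27 (SE 0.101, 95% interval -0.48 to -0.06, edgeR adjusted p = 0.0546). The interval reached from below the change of SELENOT to near 0. With 1 library left out, the edgeR adjusted p was 0.0309 without RSL3 replicate 1, the highest of the 3, and 0.0676 to 0.246 without any of the other 5. SELENOW (ENSG00000178980, chr19:47778677-47784686, plus strand) has its UGA at codon 13 of 87, in exon 2 of 6 (chr19:47780732-47780734).

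SELENOM, a soluble thioredoxin-like protein of the ER, had 2533, 2259 and 2419 normalized counts in control and 2352, 2125 and 2154 in RSL3 libraries. RSL3 replicate 1 was above control replicate 2, so the groups overlapped, and the means were 2403 ± 137 and 2210 ± 123 (SD, n = 3 each). The log2 fold change was -0.13 (SE 0.0469, 95% interval -0.22 to -0.03, edgeR adjusted p = 0.0549). With 1 library left out, it passed without control replicate 2 or RSL3 replicate 1 (edgeR adjusted p = 0.0191 and 0.0180) and did not without any of the other 4 (0.122 to 0.268). It passed in 8 of 18 alternatives in all, offsets for GC content among them (0.0226), and not by DESeq2 (adjusted p = 0.106). SELENOM (ENSG00000198832, chr22:31104772-31120069, minus strand) has its UGA at codon 48 of 145, in exon 2 of 5 (chr22:31105951-31105953).

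SELENOS takes part in ER-associated degradation, which draws misfolded proteins out of the ER with the ATPase VCP and the membrane proteins DERL1 and DERL2. It had 4013, 4036 and 3843 normalized counts in control and 4216, 4242 and 4119 in RSL3 libraries. Every RSL3 library was above every control library, by a small margin against the SDs of 105 and 64.7 around means of 3964 and 4192. The log2 fold change of 0.08 (SE 0.0338, 95% interval 0.01 to 0.15) did not pass the test (edgeR adjusted p = 0.0864), and did so in 3 of 18 alternatives, GC offsets among them (0.0240), but not with any library left out (0.0652 to 0.262). SELENOS (ENSG00000131871, chr15:101270817-101277500, minus strand) has its UGA at codon 188 of 189, in the last of 6 exons (chr15:101272777-101272779).

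SELENOF, SELENOK and MSRB1 overlapped between the groups. SELENOF, an ER protein that binds the glycoprotein folding sensor UGGT1, had 3895, 3873 and 3724 normalized counts in control and 3660, 3565 and 3794 in RSL3 libraries. RSL3 replicate 3 lay above control replicate 3, and the log2 fold change was -0.06 (SE 0.0356, 95% interval -0.13 to 0.01, edgeR adjusted p = 0.240). SELENOF (ENSG00000183291, chr1:86862445-86914424, minus strand) has its UGA at codon 96 of 165, in exon 3 of 5 (chr1:86880690-86880692).

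SELENOK, an ER membrane partner of the palmitoyltransferase ZDHHC6, had 1640, 1586 and 1482 normalized counts in control and 1541, 1661 and 1628 in RSL3 libraries. The log2 fold change was 0.04 (SE 0.0485, 95% interval -0.06 to 0.14, edgeR adjusted p = 0.646), so the data are compatible with a small change either way. SELENOK (ENSG00000113811, chr3:53884417-53891885, minus strand) has its UGA at codon 92 of 94, in exon 4 of 5 (chr3:53885831-53885833).

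MSRB1, which reduces the R form of methionine sulfoxide back to methionine, had 515, 459 and 477 normalized counts in control and 496, 482 and 476 in RSL3 libraries. All 3 RSL3 values lay between the lowest and the highest control value. Its log2 fold change was -0.0016 (SE 0.0786), and the 95% interval of -0.17 to 0.16 limits what these libraries can resolve for it (edgeR adjusted p = 0.993). MSRB1 (ENSG00000198736, chr16:1938229-1943199, minus strand) has its UGA at codon 95 of 116, in exon 3 of 4 (chr16:1940812-1940814). SELENOF, SELENOK, SELENOM, SELENOS, SELENOW and MSRB1 share no exon bases with another annotated gene. The 7 pseudogenes named after members took at most 6 reads in a library, that being SELENOTP1.

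Levels were compared between genes only per length, as CPM per kilobase of all annotated exon bases. In control cells SELENOF stood highest at 51.0, followed by SELENON at 39.99 and SELENOS at 30.9. SELENOH (22.9), SELENOK (22.4) and SELENOM (22.1) came next. SELENOK overlapped both SELENOH and SELENOM between libraries, so the order of these 3 is not resolved. SELENOT (16.5), SELENOI (11.9), MSRB1 (7.05) and SELENOW (2.00) completed the order without overlap. With RSL3, SELENOS (32.7) stood above SELENON (26.8), SELENOI (15.0) passed SELENOT (13.5), and SELENOH (13.9) came to overlap SELENOT. The order depends on the length used. Per kilobase of the canonical transcript, SELENOM was highest in control cells at 101 and MSRB1 lowest at 11.1, since the annotated exons of SELENOM cover 3187 bases but its canonical transcript only 694.

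**Figure D3:**
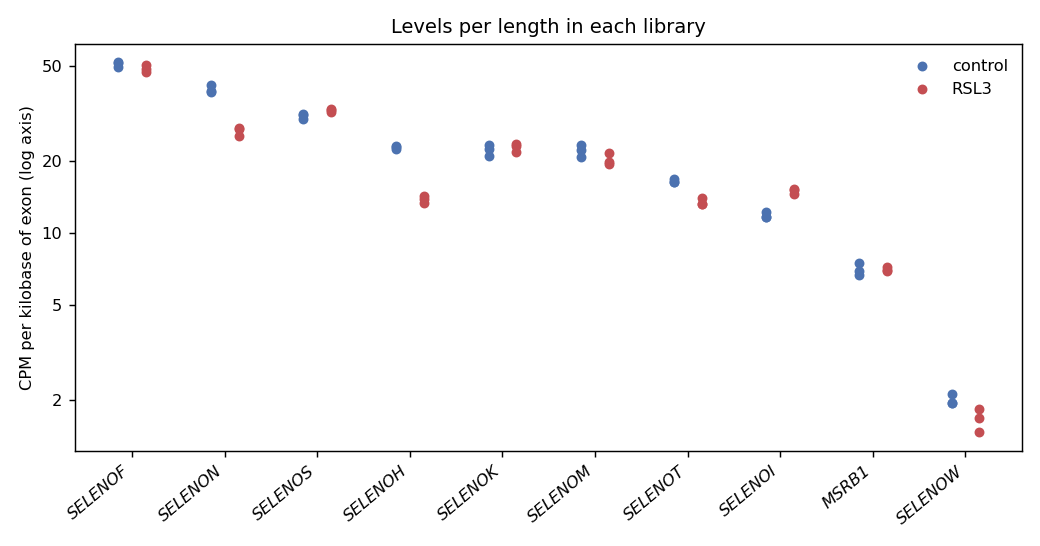
Level of each mRNA in each library, as CPM per kilobase of exon on a log axis, with control in blue and RSL3 in red, ordered by control mean. SELENON drops below SELENOS and SELENOH falls to the level of SELENOT with RSL3, while SELENOI moves above SELENOT.

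The members were then set out by the place of the UGA, which the choice of genes did not use. In SELENOT, SELENOH, SELENOW, SELENON, SELENOM and SELENOF the UGA lies 470, 267, 243, 216, 135 and 78 bases before the last exon junction, that is, more than 50. All 6 had a log2 fold change below 0, with a median of -0.28 against -0.0044 over all genes, and 3 of them, SELENOH, SELENON and SELENOT, were called lower, against 12.7% of all genes. In MSRB1 and SELENOK the UGA lies 34 and 5 bases before the last junction, and in SELENOI and SELENOS it is in the last exon. Of these 4, SELENOI was called higher, against 12.9% of all genes, and none lower, 3 had a log2 fold change above 0, and the median was 0.06. The 4 members with a cysteine codon 9 bases before the UGA, SELENOH, SELENOM, SELENOT and SELENOW, all have an early UGA, and 2 of them were called lower. With 10 genes this is a description and carries no test, and decay of these mRNAs was not tested.

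The peroxidases, thioredoxin reductases and remaining selenoproteins were sorted by the distance of their first UGA, with 10 of 15 tested. SELENON falls in the early set by either of its UGAs, whereas SELENOP, placed by the first of 10, has the other 9 in its last exon. Of 5 with the UGA more than 50 bases before the last junction, GPX1 and GPX4 were called lower, with log2 fold changes of -0.68 and -0.42 (edgeR adjusted p = 6.47e-12 and 1.68e-09), though GPX1 shares 39.9% of its exon bases with another gene of the same strand. GPX3 (-0.06), TXNRD2 (-0.01) and SELENOP (0.41) did not pass. Of 5 with the UGA nearer or in the last exon, TXNRD1 and SEPHS2 were called higher, at 0.55 and 0.32 (edgeR adjusted p = 1.41e-10 and 7.08e-07), and TXNRD3 (-0.24), DIO2 (-0.36) and SELENOO (0.15) did not pass. None was called higher in the first set and none lower in the second, as among the 10 members. Over all genes 12.9% were called higher and 12.7% lower, so none in a set of 5 is near those shares. TXNRD3 and DIO2 in the second set lay below 0 without passing. SEPHS2 was put in the second set although its transcript has 1 exon and so no junction. The sorting is likewise a description with no test.

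**Figure D4:**
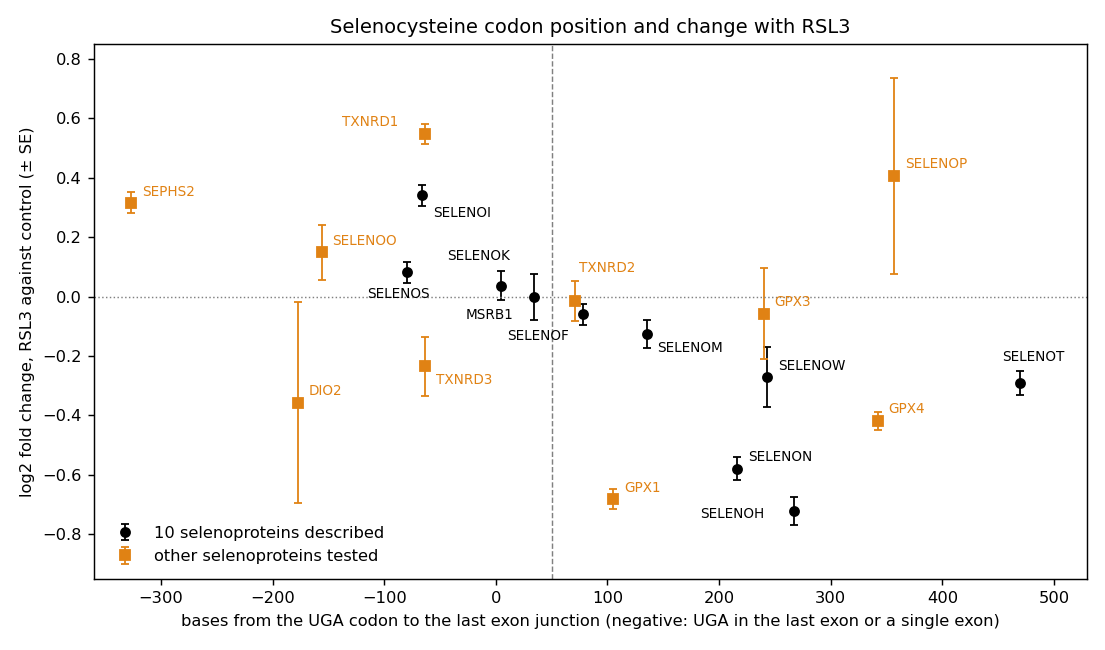
Bases from the UGA to the last exon junction (horizontal axis, negative for a UGA in the last exon or a single exon) against the log2 fold change with RSL3 and its SE (vertical axis), for the 10 members (black circles) and 10 other selenoproteins (orange squares). SEPHS2 has 1 exon and no junction, so its place at -327 is not a distance to one. The dashed line marks 50 bases, and the 6 members to its right all lie below 0, as do GPX1 and GPX4, whereas SELENOP lies above 0 with a wide error. SELENON is placed by its UGA in exon 10 and SELENOP by the first of its 10.

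Of the 10 genes that insert selenocysteine, SEPHS2, which makes the selenium donor and is itself a selenoprotein, and EEFSEC, the elongation factor, were called higher, the latter at 282 ± 12.6 against 357 ± 23.4 normalized counts (SD, n = 3 each) and a log2 fold change of 0.34 (edgeR adjusted p = 0.0106). SARS1, the seryl-tRNA synthetase, was called lower at -0.08 (edgeR adjusted p = 0.0495). The other 7, SECISBP2 among them at 0.07, did not pass, and the median of the 10 was 0.06. Thus 2 of 10 were called higher and 1 of 10 lower, near the 12.9% and 12.7% of all genes.

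Around SELENOI, 7 of 8 genes listed for phosphatidylethanolamine synthesis and adjoining phospholipid steps were tested. Of these, 3 were called higher and 1 lower (12.9% and 12.7% of all genes), with a median log2 fold change of 0.09. PCYT2, which makes CDP-ethanolamine in the step just before SELENOI, was the one called lower. It had 4715, 4767 and 4889 normalized counts in control and 3594, 3431 and 3928 in RSL3 libraries, a log2 fold change of -0.39 (SE 0.0411, edgeR adjusted p = 3.22e-07). The groups did not overlap, so within 1 route SELENOI was higher and PCYT2 lower in every RSL3 library. PISD, which makes phosphatidylethanolamine from phosphatidylserine in mitochondria, was called higher at 0.28 (edgeR adjusted p = 0.000181). Also called higher were CHPT1, a choline phosphotransferase, at 0.16 (edgeR adjusted p = 0.0154) and PTDSS2, a phosphatidylserine synthase, at 0.25 (edgeR adjusted p = 0.0463). Of these 3, only PISD makes phosphatidylethanolamine. CEPT1, which can carry out the same reaction as SELENOI, had a log2 fold change of 0.03 (SE 0.0506) and did not pass.

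Beside MSRB1, the 3 methionine sulfoxide reductases without selenocysteine gave 1 call, a lower one, where 12.7% of all genes were called lower. MSRB3 fell from 1591 ± 54.7 to 1280 ± 56.8 normalized counts (SD, n = 3 each), a log2 fold change of -0.31 (edgeR adjusted p = 5.07e-05). MSRA, which acts on the S form, had -0.03 and MSRB2, a mitochondrial enzyme, had 0.06, and neither passed.

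The last 3 lists hold partners of the ER members, and their counts are to be read against 12.9% of all genes called higher and 12.7% called lower. Of 13 tested partners of SELENOS and SELENOK in ER-associated degradation, 6 were called higher, 1 lower and 6 neither, with a median log2 fold change of 0.07. The direct partners DERL1 (0.02), DERL2 (0.04) and VCP (0.05) of SELENOS and ZDHHC6 (0.04) of SELENOK did not pass. The ubiquitin-conjugating enzyme UBE2J2 (0.18), the adaptor SEL1L (0.12) and the ubiquitin ligase SYVN1 (0.15) were among the higher ones (edgeR adjusted p = 0.000578, 0.00251 and 0.00318), and UBE2J1 was the lower one at -0.09 (edgeR adjusted p = 0.0349). Of 9 genes of ER glycoprotein quality control, the setting of SELENOF, 7 were called higher and none lower, with a median of 0.15. UGGT1, the partner of SELENOF, was higher at 0.20 (edgeR adjusted p = 4.66e-05), as were the chaperone CALR at 0.20 and the cargo receptor LMAN1 at 0.23. Of 16 ER stress genes, 7 were called higher and 1 lower, with a median of 0.08. HSPA5, HSP90B1 and PDIA4, all ER chaperones, stood at 0.33, 0.32 and 0.28 (edgeR adjusted p = 3.70e-09, 3.83e-08 and 5.28e-07), and the transcription factor ATF4 was lower at -0.13 (edgeR adjusted p = 0.00121). CALR is on both of the last 2 lists. Among the ER selenoproteins themselves, SELENON and SELENOT were called lower and SELENOI was called higher (0.34). Without passing the test, SELENOM (-0.13) and SELENOF (-0.06) lay below 0 and SELENOS (0.08) and SELENOK (0.04) above 0.

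**Figure D5:**
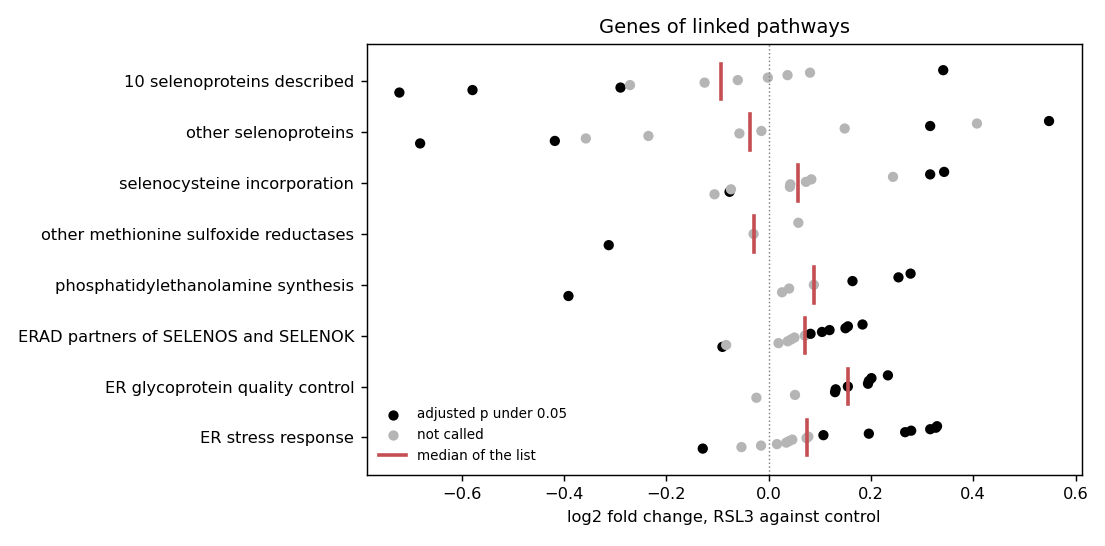
Log2 fold change with RSL3 (horizontal axis) of each tested gene in the 10 selenoproteins and 7 linked lists, black where the adjusted p was under 0.05, with the median of each list as a red bar. The 10 selenoproteins spread from -0.72 to 0.34 around a median of -0.09, whereas the ER glycoprotein list has its median at 0.15 and its called genes on the right.

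The promoters of the members were searched for motifs of stress-responsive factors, on both strands, in the 300 bases from 250 before to 50 after each start (RefSeq, GRCh38.p14). SELENOM had no entry, so 9 were searched. Members were counted as genes but the background as promoter entries, of which a gene such as SELENOF can have several. The antioxidant response element, TGACNNNGC, was found in SELENOK (TGACGATGC, chr3:53891968-53891976, position -117 from the start) and in SELENON (TGACCCCGC, chr1:25800068-25800076, position -125), 2 of 9 members against 13.3% of 35116 promoters. TGATGNAA, the CARE motif of ATF4, was found in 0 of 9 against 3.62%, and the ERSE motif of ER stress factors in 0 of 9 against 0.0769%. SELENOK did not pass the test and SELENON was lower, so the 2 members that hold the first motif had unlike values. A match is a run of letters, not a bound site.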

How the data were processed

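Per the labels and the study's methods, HISAT2 was run by the authors on paired-end reads against GRCh38.p4, and HTSeq 0.6.1p1 counted reads on the exons of each Ensembl gene without regard to strand; Trimmomatic 0.36, FastQC 0.11.5 and SAMtools 1.3.1 are also named. The release of the gene annotation is not given in the sources used here. The authors deposited raw counts, 1 file per library, with no normalization. Transcript assemblies (StringTie 1.3.0) were not used here.

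The whole table was fitted with edgeR 4.0.16 under R 4.3.3. The filter was filterByExpr (minimum count 10), which left 16105 genes. Libraries were scaled by TMM, and the 3 RSL3 libraries were compared with the 3 control libraries by the two-sided quasi-likelihood F test without covariates, with Benjamini-Hochberg adjustment over all genes tested and a threshold of 0.05. Normalized counts are TMM-scaled counts at the mean library size, intervals cover 95%, and no duplicate library was found. The fit was tested on simulated data.

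Alternatives were other scalings and filters, DESeq2 1.42.0 with 0, 1 or 2 surrogate variables (sva 3.50.0), edgeR with 1 surrogate variable, the replicate block, offsets for GC content (loess span 0.3, GC known for 97.4% of genes), each library left out, and a threshold of 0.01. Exons, UGA codons and sequences come from GENCODE release 44 on GRCh38, canonical transcripts, which may differ from the authors' annotation. Gene names matched 56434 of 65988 identifiers. All 10 selenoproteins are named, and of each linked list the genes of smallest p. The rule for the members is one of gene names and uses no measured value, but members and lists were chosen with earlier results of these data known, so no list was tested.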

Additional observations from a re-analysis of the deposited data

How the results depend on the processing

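SELENOH, SELENON, SELENOT and SELENOI kept their call and direction under all 18 alternatives, with log2 fold changes of -0.74 to -0.70, -0.60 to -0.54, -0.32 to -0.25 and 0.33 to 0.38. The number of members called lower was 5 in place of 3 with total counts, with the replicate block and with block and GC offsets together. It was 4 with no filter, with GC offsets alone and with edgeR and 1 surrogate variable, SELENOM being added. When each library was left out it was 3 to 5, 5 being without RSL3 replicate 1. Where it was 5, SELENOM and SELENOW were the added ones. The number called higher was 2 in place of 1 with the replicate block, with GC offsets and with both, SELENOS being added. Same-numbered libraries deviated together only weakly (r = 0.022, 0.027 and 0.074), while 5 of 6 libraries correlated best with their own number. The labels do not say what the numbers mean, so whether they pair the libraries cannot be told. Under the replicate block 4633 genes were called against 4123. DESeq2 with 2 surrogate variables called 2268 genes (1159 higher, 1109 lower), and a threshold of 0.01 left 2691 (1348 higher, 1343 lower). MSRB1, close to 0, changed sign to 0.00086 with 10 counts in every library, 0.0018 with DESeq2, 0.0024 and 0.0071 with 1 and 2 surrogate variables, 0.0028 with the replicate block and 0.00024 with block and GC offsets, and ran from -0.0325 to 0.0486 with a library left out, where SELENOK ran from -0.00096 to 0.0729. The cause of these shifts was not tested. SELENOW, with 258 to 476 raw counts a library, and MSRB1, with 373 to 655, had the widest intervals.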
